A study of Mus musculus with 20 samples.

Results

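The 37 genes described here encode enzymes of the citrate cycle, of branched-chain amino acid breakdown and of ketone body use, and their mRNA was measured in hearts of mice with and without the gene Sorbs2. They were taken by symbol from the rows of both deposited tables of normalised counts. All 37 were present among 18657 genes at 6 months and 17808 at 6 weeks, and all 37 passed the filter on low values (10 normalised counts or more in at least 4 libraries at 6 months and 3 at 6 weeks, the size of the smallest group). By role they fall into 13 enzymes of the citrate cycle, 4 of the malate-aspartate shuttle and the transaminases, and 5 of the first steps of branched-chain breakdown with their kinase. The rest are 9 of the later steps, 3 on the path from propionyl-CoA to succinyl-CoA, and 3 of ketone body use.

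In the mitochondrial matrix the citrate cycle oxidises acetyl-CoA and hands the electrons to the respiratory chain as NADH and FADH2. Leucine, valine and isoleucine first lose their amino group through the transaminase Bcat2 and are then committed to breakdown by the branched-chain ketoacid dehydrogenase, a complex of Bckdha, Bckdhb, Dbt and Dld that the kinase Bckdk switches off by phosphorylation. Their carbon reaches the citrate cycle as acetyl-CoA or succinyl-CoA, and the heart, which takes up ketone bodies but makes few, turns them into acetyl-CoA through Bdh1, Oxct1 and Acat1.

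The comparison covered 5 groups. The younger age, 6 weeks, had 3 libraries of wild-type mice (WT) and 3 of Sorbs2 knockout mice (KO). The older, 6 months, had 5 WT libraries, 5 KO libraries and a further 4 from KO mice given the gene back (KO+AAV). The last group was injected on postnatal day 2 with AAV9-Tnnt2-Sorbs2, an adeno-associated virus in which the cardiomyocyte promoter of Tnnt2 drives Sorbs2, and the other 4 groups had no treatment, so no group received an empty vector. The tissue is labelled as left ventricle, and the protocol speaks of ventricular myocardium. The labels give no strain or sex, and do not say how the knockout allele was made or whether a library is 1 heart.

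Sorbs2 itself checked the labels. It stood at 1409, 1751 and 1990 normalised counts in WT and at 365.1, 333.8 and 275.8 in KO at 6 weeks. At 6 months WT held 5352, 5398, 5136, 4562 and 4753, KO held 1648, 612.3, 593.1, 493.7 and 1755, and KO+AAV held 4696, 5753, 15690 and 17923. The groups of KO and WT did not overlap at either age. A library of 6 months summed to between 11359135 and 13670340 normalised counts, and one of 6 weeks to between 6705133 and 8240294. Skeletal muscle markers summed to 15.74 to 61.62 normalised counts at 6 months, and the atrial markers Sln and Bmp10 had means under 10 in WT at that age. In the 6-week table the 6 atrial markers summed to 96545 to 226668 per library, beside 418911 to 754756 for the 12 cardiomyocyte markers of the same table. In WT of the 6-month table they summed to 5929 to 9993, beside 1397717 to 1700336, so the younger tissue held more atrial marker RNA per cardiomyocyte marker RNA under a ventricular label. Xist was expressed in 2 of the 5 WT, none of the 5 KO and 2 of the 4 KO+AAV libraries of 6 months, and in a single library of each younger group.

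Libraries within the groups of 6 months fell into a pair of sets that no label names. After the group means were removed, the first principal component over all genes, with 36.7% of the remaining variance, put WT 1 to 3, KO 2 to 4 and KO+AAV 3 and 4 on one side (8 libraries, the upper set) and WT 4 and 5, KO 1 and 5 and KO+AAV 1 and 2 on the other (6 libraries, the lower set). The Sorbs2 values above separate by the same sets within each group, but the direction differs. Lower-set libraries held more Sorbs2 than upper-set libraries in KO, and less in WT and in KO+AAV. Both WT libraries of the lower set express Xist. Within KO, the 2 lower-set libraries lay below all 3 upper-set libraries in 35 of the 37 enzymes (all but Suclg1 and Mcee), where 28.61% of all tested genes did so. Within WT and within KO+AAV they lay below in 22 of 37, where the shares of all genes were 21.66% and 31.15%. The median enzyme of the lower set was lower by 0.69 on the log2 scale in KO and by 0.38 in WT and in KO+AAV. Results below are therefore also given without KO 1 and KO 5, with the set as a covariate, and within each set. Because the sets were read from these same values, p values of fits that use them are too small.

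The promoters of members that the results turn on are shown first, as the 250 bases before the RefSeq start, from GRCm38.p6 and on the strand of the gene. Of the 37 members, 33 were matched to this table. Bcat2 (chr7:45569903-45570152, plus strand) had the smallest adjusted p of the 37 in KO at 6 months and Mccc1 (chr3:36000679-36000928, minus strand) was not lower there, while Got1 (chr19:43524606-43524855, minus strand) and Idh3g (chrX:73786898-73787147, minus strand) hold a searched motif, in capitals.
Bcat2: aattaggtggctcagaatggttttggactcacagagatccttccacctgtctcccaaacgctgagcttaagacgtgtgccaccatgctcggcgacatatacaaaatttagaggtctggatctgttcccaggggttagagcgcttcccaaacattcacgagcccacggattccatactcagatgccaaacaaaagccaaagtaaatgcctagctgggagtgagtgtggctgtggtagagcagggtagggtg
Mccc1: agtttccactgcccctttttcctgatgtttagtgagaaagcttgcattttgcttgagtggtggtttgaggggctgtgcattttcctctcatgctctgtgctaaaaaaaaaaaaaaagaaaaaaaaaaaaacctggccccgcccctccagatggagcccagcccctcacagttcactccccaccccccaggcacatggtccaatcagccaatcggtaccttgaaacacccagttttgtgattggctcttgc
Got1: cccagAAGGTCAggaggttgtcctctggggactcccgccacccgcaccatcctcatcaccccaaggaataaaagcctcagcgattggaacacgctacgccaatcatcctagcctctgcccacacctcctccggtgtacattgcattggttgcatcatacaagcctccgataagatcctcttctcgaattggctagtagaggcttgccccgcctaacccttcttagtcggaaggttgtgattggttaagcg
Idh3g: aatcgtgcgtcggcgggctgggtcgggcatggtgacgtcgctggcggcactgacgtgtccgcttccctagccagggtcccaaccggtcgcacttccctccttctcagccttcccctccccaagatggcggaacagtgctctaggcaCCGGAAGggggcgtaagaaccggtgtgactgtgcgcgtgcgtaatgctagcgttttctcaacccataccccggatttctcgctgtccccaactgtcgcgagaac
The capitals in Got1 mark AAGGTCA, the half-site of estrogen-related receptors, and those in Idh3g mark CCGGAAG, the core letters of ETS factors such as GABPA. On either strand, AAGGTCA was found in 1 of 33 members (3.0%) and in 4.05% of the 27025 promoters of the table. CCGGAAG was found in 2 of 33 (6.1%; Idh3g and Auh) against 7.05%. The NRF1 letters GCGCATGCG were found in 1 of 33 (3.0%; Pccb) against 1.49%. These matches are descriptions of letters in a fixed window. In the 4 promoters shown no searched motif overlapped another.

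Per kilobase of annotated exon (GENCODE M21), the enzymes spanned a wide range of levels in WT hearts at 6 months. The highest were Mdh1, the cytosolic malate dehydrogenase, at 13229 ± 1056 normalised counts per kb, Idh2, the NADP-dependent isocitrate dehydrogenase, at 11047 ± 1990, and Oxct1, the enzyme that activates ketone bodies, at 6241 ± 1277 (SD, n = 5). Mdh2 at 5754 ± 701 and Ogdh, the first subunit of the oxoglutarate dehydrogenase complex, at 5316 ± 1556 followed within 1 SD of Oxct1. The lowest were Mccc1 at 86.8 ± 15.99, Auh at 155.9 ± 11.03, Gpt at 162.3 ± 21.4 and Acad8 at 170.1 ± 20.5, of which the last 3 differed by no more than their spread. This order depends on the divisor, the exons of all annotated transcripts together: 10952 bp for Mccc1 and 9580 for Auh, but 2941 for Gpt. Undivided, Auh averaged 1493 and Mccc1 951.1, above Acad8 at 704.8 and Gpt at 477.4. Within the branched-chain pathway Bckdha stood at 2290 ± 204, Bcat2 at 709.6 ± 134.3, Bckdhb at 460.5 ± 29.0, the kinase Bckdk at 385.3 ± 67.9 and Dbt at 242.4 ± 33.1. In GRCm38 these genes lie at chr7:25629946-25658981 on the minus strand (Bckdha), chr7:45570153-45589711 on the plus strand (Bcat2) and chr9:83925145-84124240 on the plus strand (Bckdhb), while Gpt lies at chr15:76695716-76699686 and Suclg1 at chr6:73248382-73276911, both on the plus strand.

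At 6 weeks no enzyme passed the test between KO and WT. The test here and below is limma on log2(normalised count + 1) over all tested genes, two-sided, with Benjamini-Hochberg adjusted p under 0.05 as the threshold. Among all 13242 genes 0.211% were lower and 0.378% were higher by this rule. At an unadjusted p under 0.05 there were 4 of 37 enzymes (Gpt, Bckdhb, Dbt and Mccc2) and 2045 of 13242 genes. The median log2 change of the 37 was -0.16, with 28 below 0, and the median over all genes was 0.005. In simulated data of this design 28% of changes of log2 size 1 and 81% of size 2 were called.

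By unadjusted p, and by overlap on the lower side, the enzymes of 6 weeks were near the shares of all genes. On the higher side their share without overlap was below that of all genes. Among the 4 of unadjusted p under 0.05, Gpt, alanine transaminase, stood at 186.3, 162.5 and 160 normalised counts in WT and at 95.3, 123.3 and 96.1 in KO, a log2 difference of -0.69 ± 0.21 (SE, limma adjusted p = 0.165). Bckdhb, the second catalytic subunit of the branched-chain dehydrogenase, stood at 339.6, 401.6 and 292.8 in WT and at 273.1, 243.9 and 188.8 in KO, a log2 difference of -0.55 ± 0.21 (limma adjusted p = 0.247). The KO values of both genes lay below every WT value. The 12 cardiomyocyte markers had a median log2 difference of -0.42 at this age, none past the threshold, and with libraries scaled to their equal mean the median of the 37 enzymes was 0.20 and again none was called. Fibroblast markers had a median of 0.51 and adipocyte markers of 0.96, none past the threshold, and their part in the enzyme values was not tested. KO libraries also lay below every WT library for Dlst, Bcat2 and Mccc2, while for Auh they lay above, so 5 of 37 did not overlap on the lower side and 1 on the higher side, where 10.3% and 10.9% of all genes did so.

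At 6 months 20 of the 37 enzymes were lower in KO than in WT and 0 were higher, where 8.18% of the 13419 tested genes were lower and 8.13% higher. The median log2 change of the 37 was -0.68, against 0.002 for all genes, and 35 lay below 0, the exceptions being Mccc1 and Bdh1. In 16 of 37 every KO value lay below every WT value, which held for 7.29% of all genes. In whole tissue, fewer cardiomyocytes and less of an mRNA per cardiomyocyte cannot be told apart.

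**Figure D1:**
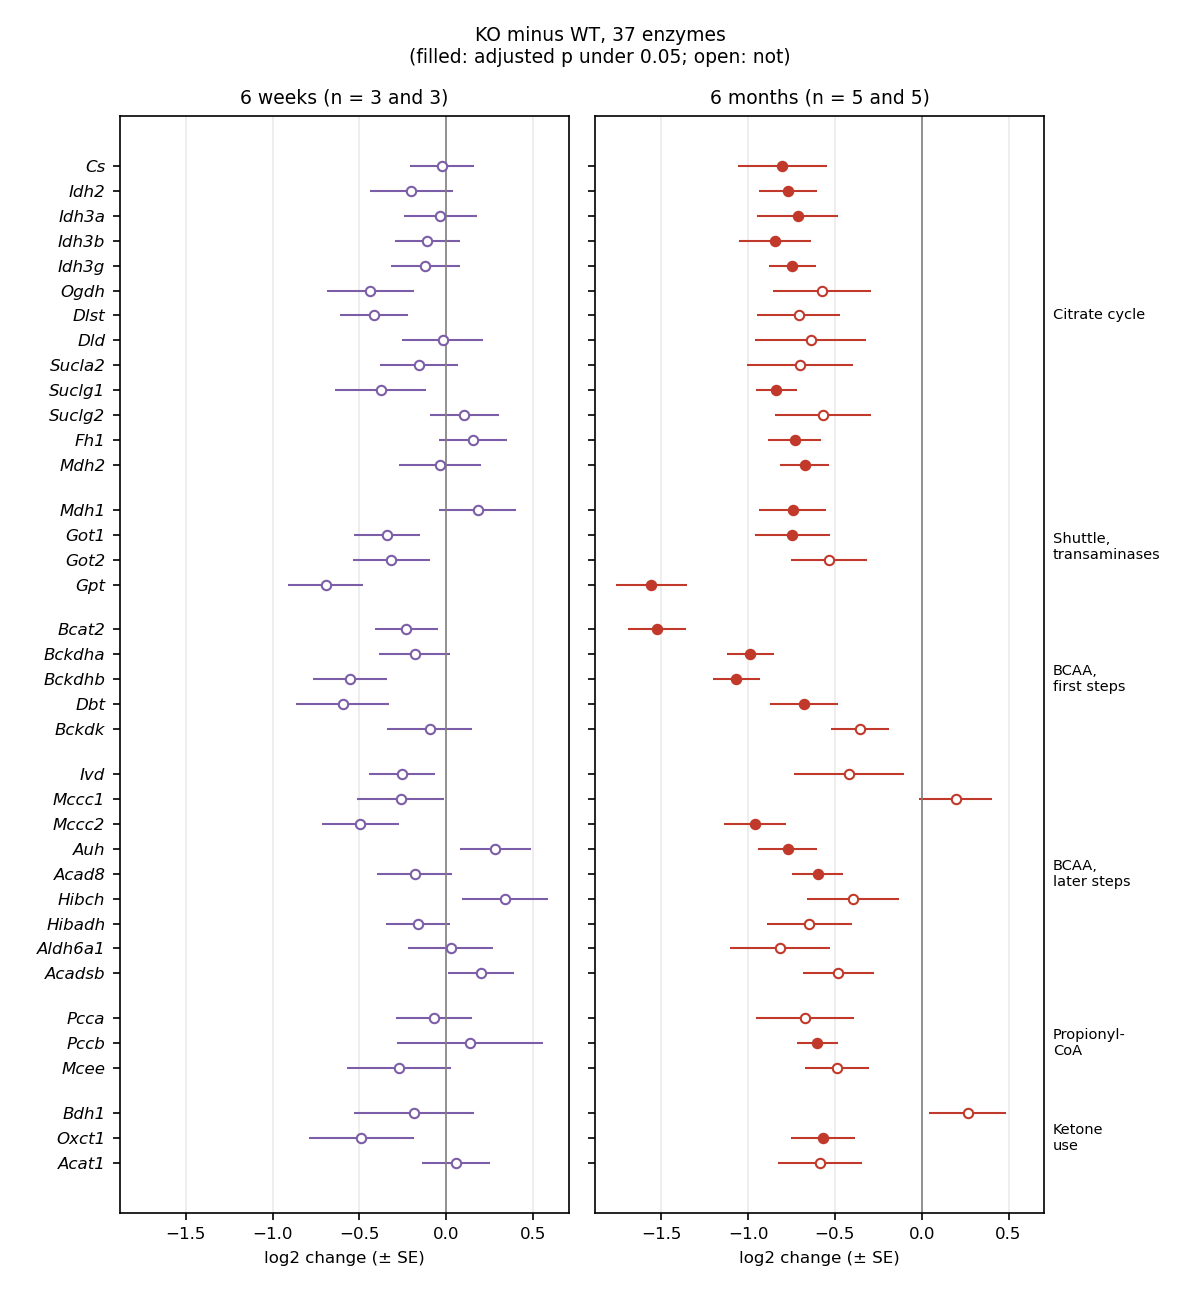
Log2 change of each of the 37 enzymes in KO against WT (x axis, ± SE) at 6 weeks (left, 3 and 3 libraries) and 6 months (right, 5 and 5 libraries), grouped by role on the y axis; filled points have an adjusted p under 0.05. At 6 weeks no point is filled, and at 6 months 20 are, all to the left of 0.

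Of the 13 citrate cycle enzymes 8 fell in KO at 6 months: Cs, Idh2, Idh3a, Idh3b, Idh3g, Suclg1, Fh1 and Mdh2, with a median over the 13 of -0.71 and a narrow range from -0.85 to -0.57. Suclg1, the shared alpha subunit of succinyl-CoA ligase, stood at 7296, 5655, 5971, 6565 and 7415 normalised counts in WT and at 3561, 4025, 4003, 3506 and 3285 in KO. All 5 KO values lay below the lowest WT value, KO was at 56.0% of WT, and the log2 change was -0.84 ± 0.12 (limma adjusted p = 0.000177). Idh3g, the regulatory gamma subunit of the NAD-dependent isocitrate dehydrogenase, stood at 8195, 7114, 7161, 7974 and 7472 in WT and at 3912, 4882, 4876, 5403 and 3751 in KO. Its groups also did not overlap (log2 change -0.74 ± 0.13, limma adjusted p = 0.00141).

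Fh1, fumarase, was even in WT, at 7698, 7629, 7335, 7510 and 7082, and in KO stood at 3651, 5151, 5203, 5177 and 3572, with KO 1 and KO 5 lowest (log2 change -0.73 ± 0.15, limma adjusted p = 0.00386). Mdh2, the mitochondrial malate dehydrogenase, stood at 23480, 17671, 18447, 20434 and 22455 in WT and at 12092, 12893, 13798, 13907 and 11381 in KO (log2 change -0.67 ± 0.14, limma adjusted p = 0.00383). Neither gene had a KO value within the WT range. Of the other called enzymes, citrate synthase (Cs) averaged 16346 ± 3224 in WT and 9768 ± 3463 in KO (SD, n = 5), Idh2 28588 ± 5150 and 16737 ± 2841, Idh3a 7980 ± 1420 and 5000 ± 1506, and Idh3b 9977 ± 1059 and 5649 ± 1278. Adjusted p values of these 4 ran from 0.00495 for Idh2 to 0.0469 for Idh3a.

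The 5 citrate cycle genes that did not pass were Ogdh, Dlst, Dld, Sucla2 and Suclg2. They are the 3 subunits of the oxoglutarate dehydrogenase complex and both beta subunits of succinyl-CoA ligase, which decide whether the ligase makes ATP (Sucla2) or GTP (Suclg2). In WT and KO, Ogdh averaged 29006 ± 8492 and 20056 ± 7550, Dlst 8707 ± 1956 and 5477 ± 1800, Dld 5942 ± 1683 and 3989 ± 1630, and Suclg2 2630 ± 635 and 1825 ± 614 (SD, n = 5). Their log2 differences ran from -0.71 ± 0.24 for Dlst (limma adjusted p = 0.0535) to -0.57 ± 0.28 for Suclg2 (limma adjusted p = 0.193), and their standard errors ran from 0.24 to 0.32. Sucla2 held 10306, 9657, 10181, 7955 and 5755 in WT and 3269, 7796, 7113, 6549 and 3470 in KO, with the lower-set libraries lowest in each group. Suclg2 shares part of its exon sequence, in runs of 50 bases or more, with Gm15163.

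Among the 4 enzymes that move amino groups and malate, Gpt, Mdh1 and Got1 fell in KO at 6 months and Got2 did not pass. Gpt stood at 558.8, 396.8, 496.6, 435.3 and 499.6 in WT and at 136.5, 188.3, 237.4, 164.6 and 106 in KO. KO was at 34.0% of WT on the log scale, with no overlap (log2 change -1.56 ± 0.21, limma adjusted p = 0.000108). Mdh1 stood at 36967, 34051, 32753, 35933 and 30090 in WT and at 15552, 23585, 22951, 23522 and 17161 in KO, again without overlap (log2 change -0.74 ± 0.19, limma adjusted p = 0.0157). Got1, the cytosolic aspartate transaminase, stood at 14004, 12612, 11540, 10851 and 7396 in WT and at 4281, 8112, 8360, 7641 and 5589 in KO. Here WT 5 lay inside the KO range (log2 change -0.74 ± 0.22, limma adjusted p = 0.0278). Got2, its mitochondrial counterpart, averaged 13183 ± 2313 in WT and 9322 ± 2679 in KO (log2 difference -0.53 ± 0.22, limma adjusted p = 0.114). Of the distinct 50-base stretches of Got2 transcripts, 16.8% also occur in Got2-ps1.

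The first steps of branched-chain breakdown held the lowest median of any role, -0.99, and 4 of 5 genes fell. Bcat2 stood at 3488, 2851, 2962, 2400 and 2135 normalised counts in WT and at 867.7, 1068, 1044, 979.2 and 811.6 in KO. The highest KO value was 1068 and the lowest WT value 2135, and KO averaged 34.8% of WT on the log scale (log2 change -1.52 ± 0.17, limma adjusted p = 2.3e-05). Bckdhb stood at 875.7, 768.2, 780.4, 866.1 and 865.5 in WT and at 356.1, 468.8, 463.2, 408.8 and 306.8 in KO. These groups were separate too (log2 change -1.07 ± 0.13, limma adjusted p = 7.36e-05).

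Bckdha, the catalytic alpha subunit, stood at 4998, 4087, 4024, 4330 and 4306 in WT and at 2184, 2414, 2458, 2270 and 1699 in KO (log2 change -0.99 ± 0.13, limma adjusted p = 0.00015). Every KO value was under the WT range. On the opposite strand, B3gnt8 overlaps 61.7% of the Bckdha exon bases; B3gnt8 was listed at 10.5 to 72.3 normalised counts over the WT and KO libraries of 6 months, and its log2 difference was 0.68 (limma adjusted p = 0.24). Dbt, the core subunit, stood at 817.3, 924, 915.6, 681.9 and 718.2 in WT and at 440.4, 627.9, 596.2, 652.2 and 298.9 in KO (log2 change -0.68 ± 0.20, limma adjusted p = 0.0286), with the highest KO value just under the lowest WT value. Bckdk, the kinase that inhibits the complex, averaged 1424 ± 251 in WT and 1119 ± 224 in KO and did not pass (log2 difference -0.35 ± 0.17, limma adjusted p = 0.176). Bcat2 is overlapped over 15.9% of its exon bases by 0610005C13Rik on the other strand, and whether counting used strand is not given in the sources used here.

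**Figure D2:**
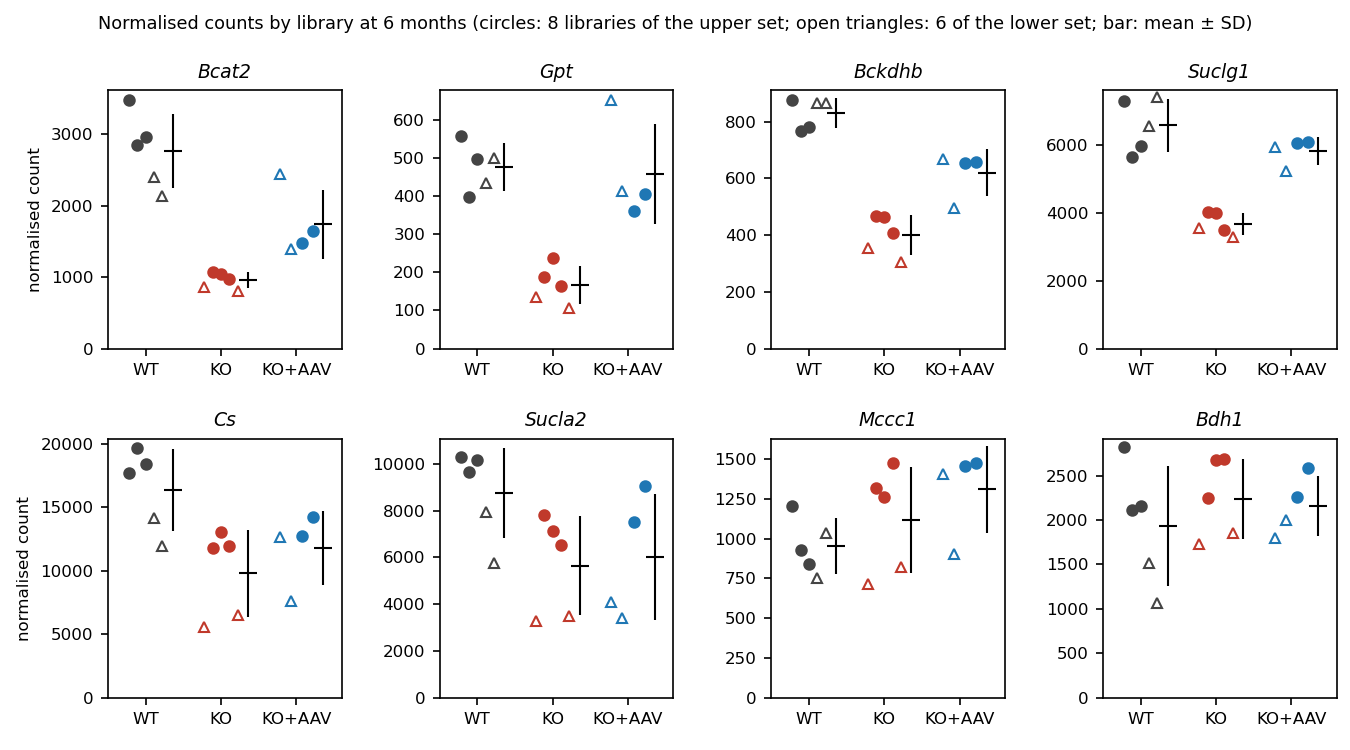
Normalised counts (y axis, from 0) of 8 enzymes in each library of 6 months by group; circles are the 8 libraries of the upper set, open triangles the 6 of the lower set, and the bar is the mean ± SD. Bcat2, Gpt, Bckdhb and Suclg1 show KO libraries below all WT libraries, Cs and Sucla2 show triangles lowest within KO, and Mccc1 and Bdh1 show overlapping groups.

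Later in the pathway 3 of 9 genes fell, and the median was -0.60. Mccc2, the beta subunit of the methylcrotonyl-CoA carboxylase of leucine breakdown, stood at 1173, 1013, 1038, 1048 and 858.7 in WT and at 388.1, 630.2, 682.5, 587.2 and 404.2 in KO (log2 change -0.96 ± 0.18, limma adjusted p = 0.00168). Auh, the hydratase of the next leucine step, stood at 1657, 1527, 1476, 1411 and 1395 in WT and at 729.4, 925.6, 949.2, 944.5 and 836.4 in KO (log2 change -0.77 ± 0.17, limma adjusted p = 0.00519). Both genes had separate groups. Acad8, the isobutyryl-CoA dehydrogenase of valine breakdown, stood at 808.3, 718.1, 758.3, 635.9 and 603.5 in WT and at 394.1, 516.8, 528.8, 539.1 and 363 in KO, also without overlap (log2 change -0.60 ± 0.15, limma adjusted p = 0.0101). Aldh6a1, which makes propionyl-CoA from valine carbon, stood at 2513, 3525, 3099, 2230 and 1620 in WT and at 939.2, 2002, 1847, 2027 and 837.5 in KO. Its difference was large but the groups overlapped (log2 difference -0.81 ± 0.29, limma adjusted p = 0.0668), and 18.6% of its exon bases are overlapped by Bbof1 on the other strand.

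The others of this role were Ivd, Hibch, Hibadh and Acadsb, which act in leucine (Ivd), valine (Hibch and Hibadh) and isoleucine (Acadsb) breakdown, and Mccc1. In WT and KO, Ivd averaged 2490 ± 807 and 1969 ± 900, Hibch 1354 ± 293 and 1038 ± 275, Hibadh 3505 ± 712 and 2285 ± 681, and Acadsb 2015 ± 340 and 1483 ± 437 (SD, n = 5). These 4 had log2 differences from -0.65 for Hibadh to -0.40 for Hibch and limma adjusted p from 0.084 to 0.435. Mccc1, the alpha subunit that pairs with Mccc2, was singled out after its values were seen. It stood at 1204, 926.2, 839.4, 753.8 and 1032 in WT and at 712.4, 1316, 1262, 1477 and 819.6 in KO, with the 3 upper-set KO libraries above every WT library and the other 2 within or under the WT range. Over all libraries the log2 difference was 0.20 ± 0.21 (limma adjusted p = 0.615). Within the upper set of 8 libraries it was 0.46 ± 0.13 (limma adjusted p = 0.0356), and within the lower set of 6 it was -0.21 ± 0.25 (limma adjusted p = 0.697). The p value of the upper set cannot serve as a test, because set and gene were both picked from these same values. Whether the effect differed between Mccc1 and Mccc2, or between the sets, was not tested.

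Of the 3 genes on the path from propionyl-CoA to the citrate cycle, Pccb fell. This beta subunit of propionyl-CoA carboxylase stood at 2192, 1863, 1646, 2112 and 1875 in WT and at 1114, 1323, 1385, 1449 and 1121 in KO, without overlap (log2 change -0.60 ± 0.12, limma adjusted p = 0.00248). Its partner Pcca stood at 1303, 1327, 1221, 1017 and 717.8 in WT and at 405.4, 923.5, 852.8, 985.7 and 477.2 in KO (log2 difference -0.67 ± 0.28, limma adjusted p = 0.125). Mcee, the methylmalonyl-CoA epimerase, stood at 672.2, 543.5, 591.3, 797.4 and 959.4 in WT and at 689, 514, 463.9, 427.8 and 433.2 in KO (log2 difference -0.49 ± 0.18, limma adjusted p = 0.085). Mcee also ran most against the sets: within each group it had the highest value of lower set minus upper set, 0.54 in WT, 0.23 in KO and 0.45 in KO+AAV. In KO its sets overlapped. Idh2 in WT, and Gpt and Bckdha in KO+AAV, likewise had every lower-set value above every upper-set value.

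Of the 3 enzymes of ketone body use Oxct1 fell. Oxct1 stood at 29842, 24791, 23652, 18198 and 19006 in WT and at 13564, 18143, 17736, 18200 and 10608 in KO. The highest KO value lay just above the lowest WT value (log2 change -0.57 ± 0.19, limma adjusted p = 0.0469), and the call was lost without WT 1, WT 2, WT 3, KO 1, KO 3 or KO 5. Acat1, the thiolase that splits acetoacetyl-CoA, stood at 9357, 10144, 8946, 8628 and 5924 in WT and at 3548, 7411, 7167, 7344 and 4125 in KO (log2 difference -0.59 ± 0.24, limma adjusted p = 0.12). Bdh1, which oxidises hydroxybutyrate and opens the pathway, stood at 2824, 2112, 2157, 1510 and 1063 in WT and at 1725, 2242, 2676, 2691 and 1848 in KO. These groups overlapped almost fully (log2 difference 0.26 ± 0.22, limma adjusted p = 0.498). Over all 37, the count of lower enzymes without KO 1 and KO 5 was 12, where 5.32% of all genes were lower, and the median was -0.37 in place of -0.68. With the set as a covariate it was 34 (14.2% of all genes), within the upper set 31 (9.66%), with Mccc1 higher (7.64%), and within the lower set 19 (4.53%). Called lower under each of these 4 fits were Bcat2, Bckdha, Bckdhb, Gpt, Fh1, Idh2, Idh3g, Mccc2, Pccb and Suclg1. The fits share libraries, and the set fits rest on sets read from these same values, so they are not independent checks. In the lower set both WT libraries express Xist and neither KO library does, so genotype and Xist class cannot be told apart there. With Xist class as a covariate over all libraries, 19 enzymes were lower (6.35% of all genes). In libraries with Y-linked expression alone there were 16 (5.03%), and Idh2 was not among them.

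Of the 12 markers of the heart's own muscle cells 4 fell in KO at 6 months. The 12 cardiomyocyte markers summed to 1397717 to 1700336 normalised counts in WT, 888057 to 1174754 in KO and 1242874 to 1896013 in KO+AAV at 6 months, and none was at 0. The 4 that fell were Myh6, Tnni3, Ckm and Myl3, none rose, and the median of the 12 was -0.56 with 11 below 0. Fibroblast markers summed to 30599 to 45640 in WT and 42930 to 59357 in KO, with 6 of 10 higher, a median of 0.74 and none at 0. The 6 atrial markers summed to 37704 to 127062 in KO, with 2 of the 3 that could be tested higher (Nppa and Dkk3) and Bmp10 at 0. Those not tested did not pass the filter. Whether the atrial sum reflects atrial tissue, and the part of all these markers in the enzyme values, was not tested. When libraries were scaled to an equal mean of the 12 cardiomyocyte markers, Bcat2, Bckdha, Bckdhb and Gpt were still lower, Bdh1 and Mccc1 were higher (log2 changes 0.84 and 0.77, limma adjusted p = 0.00766 and 0.00332), and the other 31 did not pass. At that scaling the median of all genes was 0.577 on the log2 scale and that of the 37 enzymes -0.10, with 27 of 37 below 0, 1.81% of genes lower and 56.1% higher. Scaling to equal totals gave an all-gene median of 0.158 and left 15 enzymes lower, with 4.9% of genes lower and 13.1% higher.

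**Figure D3:**
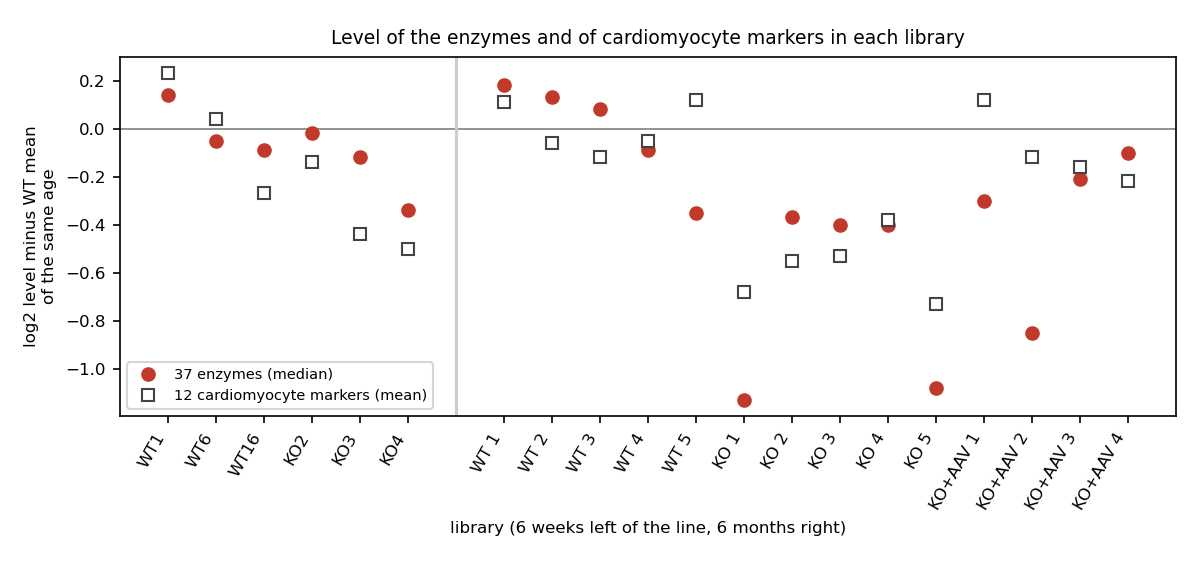
For each library (x axis, 6 weeks left of the line, 6 months right), the median over the 37 enzymes (filled circles) and the mean over 12 cardiomyocyte markers (open squares) of the log2 level minus the WT mean of the same age (y axis). KO 1 and KO 5 have enzyme medians of -1.13 and -1.08, below the -0.37 to -0.40 of KO 2 to KO 4.

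In KO hearts that received Sorbs2, 10 enzymes were higher than in untreated KO hearts and 0 were lower, where 5.55% of all genes were higher and 5.69% lower. They were Idh2, Idh3g, Suclg1 and Mdh2 of the citrate cycle, Gpt, the branched-chain genes Bcat2, Bckdha and Bckdhb, and Pccb and Mcee of propionyl-CoA metabolism. For the same 10, every KO+AAV value lay above every KO value, which held for 6.68% of all genes. The median of the 37 was 0.26, against 0.00 for all genes. Of the cardiomyocyte markers 3 of 12 were higher in KO+AAV (Tnnt2, Tnni3 and Ckm), with a median of 0.58. Of the fibroblast markers 4 of 10 were lower, with a median of -0.64, and of the atrial markers 2 of the 3 tested were lower (Nppa and Dkk3). The part of fibroblast and atrial markers in the enzyme values was not tested. This comparison uses the same KO libraries as the one with WT, so the 2 sets of changes are not independent.

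Gpt rose from the KO values above to 651.9, 414.5, 362.3 and 406 in KO+AAV, where the WT range was 396.8 to 558.8 (log2 change against KO 1.47 ± 0.22, limma adjusted p = 0.00113). Bckdha rose to 5124, 4104, 3398 and 3964, of which KO+AAV 2 was inside the WT range, KO+AAV 1 above it and the other two below it (log2 change 0.91 ± 0.14, limma adjusted p = 0.00176). Bcat2 rose to 2443, 1388, 1477 and 1652, of which only KO+AAV 1 reached the WT range (log2 change 0.84 ± 0.18, limma adjusted p = 0.00807). Bckdhb rose to 670.2, 495.4, 656.4 and 658.9, all under the lowest WT value of 768.2 (log2 change 0.64 ± 0.14, limma adjusted p = 0.0108).

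Suclg1 rose to 5942, 5228, 6063 and 6098 (log2 change 0.67 ± 0.12, limma adjusted p = 0.00376), Idh2 to 30256, 24218, 29369 and 27340 (0.74 ± 0.18, limma adjusted p = 0.0148) and Mdh2 to 24379, 17196, 18947 and 18527 (0.62 ± 0.15, limma adjusted p = 0.0161). Within the WT range lay 3 of the 4 values of Suclg1, all 4 of Idh2 and 2 of the 4 of Mdh2, whose other values fell just outside on either side. Mcee rose to 1157, 873.8, 712.1 and 758.1 (0.79 ± 0.19, limma adjusted p = 0.0179) and had a KO+AAV mean of 875.4 ± 199.9, beside 712.8 ± 168.1 in WT. Idh3g and Pccb rose by 0.54 ± 0.14 and 0.44 ± 0.13 (limma adjusted p = 0.025 and 0.0342). None of the 9 later branched-chain genes and none of the 3 ketone genes passed. Oxct1 held 18038, 15889, 17544 and 20047 in KO+AAV, a log2 difference of 0.22 ± 0.20 from KO (limma adjusted p = 0.465), with KO+AAV 4 alone above the KO range. Auh held 969.8, 566.1, 1082 and 1209, a log2 difference of 0.08 ± 0.18 from KO (limma adjusted p = 0.796).

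The count of higher enzymes rested in part on single libraries. Without KO+AAV 1, a library of the lower set with the highest Bcat2, Gpt, Bckdha and Mdh2 of its group, 5 were higher (Bcat2, Bckdha, Bckdhb, Gpt and Suclg1), where 1.77% of all genes were. Without KO 1 and KO 5 there were 6, where 6.43% of all genes were higher, and the median of the 37 was -0.06 in place of 0.26. With the set as a covariate there were 16 (12.5%). With a term that separates Xist-expressing from Y-linked libraries there were 4 (Bcat2, Bckdha, Gpt and Suclg1; 1.67% of all genes), and in Y-linked libraries alone or at equal cardiomyocyte marker mean there were 2 (Bckdha and Gpt; 0.611% and 1.1%). Pccb lost its call without KO 1, KO 2, KO 5, KO+AAV 1 or KO+AAV 4, and Idh3g without KO 5 or KO+AAV 1.

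**Figure D4:**
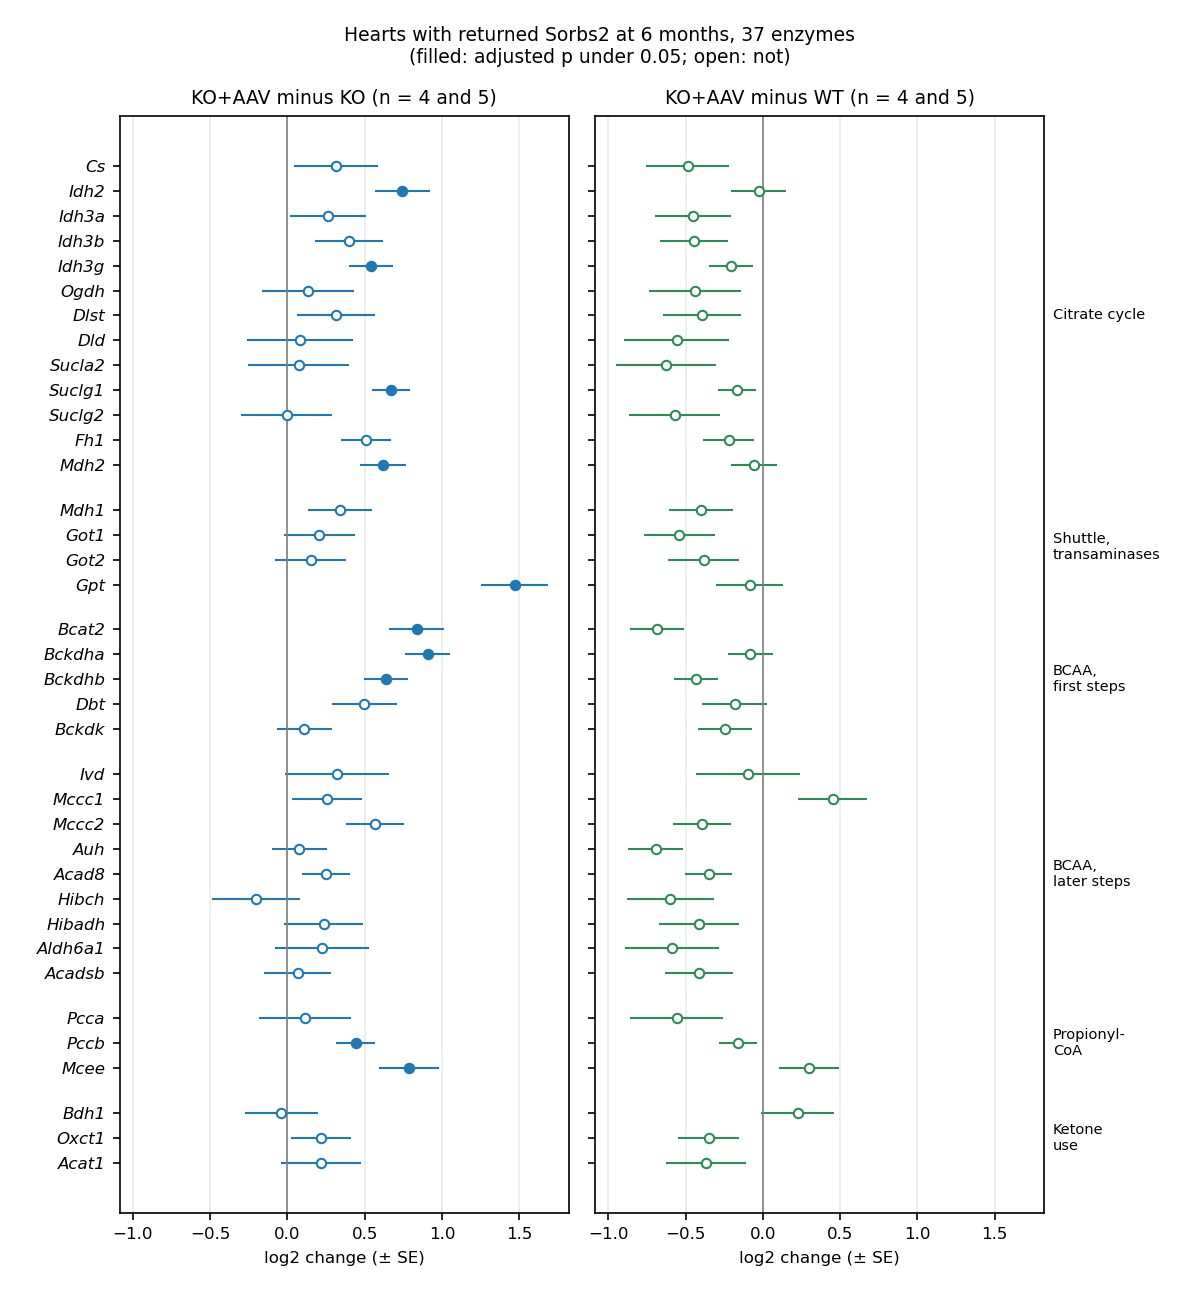
Log2 change of each of the 37 enzymes (x axis, ± SE) in KO+AAV against KO (left, 4 and 5 libraries) and against WT (right, 4 and 5 libraries) at 6 months, by role; filled points have an adjusted p under 0.05. On the left 10 points are filled, all right of 0, and on the right none is.

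Against WT, KO+AAV hearts had 0 of 37 enzymes past the limma threshold, where 0.715% of all genes were lower and 0.611% higher, and 6 at an unadjusted p under 0.05, where 2454 of 13419 genes were. The median was -0.39 with 34 of 37 below 0. Bcat2 differed from WT by -0.69 ± 0.18 and Auh by -0.69 ± 0.18 (limma adjusted p = 0.0666 for each). Every KO+AAV value of Auh and of Bckdhb lay below every WT value, which held for 2.67% of all genes. Bcat2 passed without WT 5 or without KO+AAV 1, and Auh without KO+AAV 4. With the set as a covariate 10 were lower, among them Bcat2, Auh, Bckdhb, Acad8 and Got1, where 5.62% of all genes were. Within the upper set 8 were lower (3.15% of all genes) and Mccc1 was higher (1.84% of all genes). The log2 change of Mccc1 was 0.58 ± 0.15 (limma adjusted p = 0.0495). Because the sets were read from these same values, the p values of these set fits are too small.

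The effect of the knockout was then compared between the ages, as the difference of the log2 changes. It was larger on the lower side at 6 months for 3 of 37 enzymes, where 2.09% of the 12709 genes tested at both ages were, and for 0 on the higher side (1.99%). Bcat2 differed by -1.29 ± 0.24 (adjusted p = 0.00235), from 527.1, 450.4 and 459.5 in WT and from 386.7 to 446.7 in KO at 6 weeks, a difference of -0.23, to -1.52 at 6 months. Auh differed by -1.05 ± 0.27 (adjusted p = 0.0246), from 156.8, 153.1 and 157 in WT and 222.5, 192.3 and 159.3 in KO at 6 weeks. Fh1 differed by -0.89 ± 0.25 (adjusted p = 0.0449), from 922.1, 766.4 and 712.6 in WT and 854.6, 1059 and 767.8 in KO. Adjusted p values here are Benjamini-Hochberg over the 12709 genes, from both limma fits.

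The median difference between ages over the 37 was -0.60, with 35 below 0, so most enzymes had a lower estimate at 6 months but few were past the threshold. Gpt, which had the lowest estimate at 6 weeks too, differed by -0.86 ± 0.30 (adjusted p = 0.102), and Dbt by -0.08 ± 0.33 (adjusted p = 0.931). Bcat2 was called under all 29 alternatives tried. Auh lost its call without WT6, KO2 or KO3 of 6 weeks, without KO 1 and KO 5 together, at equal cardiomyocyte marker mean and in Y-linked libraries alone. Fh1 lost its call without any of WT6, WT16, KO2, KO3, KO4, WT 1 to 4, KO 1 or KO 5. The Fh1 call was also lost at equal totals, quantile normalisation or equal cardiomyocyte marker mean, and without a variance trend. It was lost too with Xist class or replicate number as a term. The ages also differ in atrial relative to cardiomyocyte marker sums, as given above, and in other marker lists. In WT, liver markers summed to 2395 to 5626 normalised counts at 6 weeks and to 103.2 to 166.8 at 6 months. Erythroid markers summed to 36857 to 55046 in WT at 6 weeks and to 12174 to 33484 at 6 months. These differences and age cannot be told apart here.

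Other genes of the same pathways followed in part. Of 32 further citrate cycle and pyruvate genes 9 fell in KO at 6 months and 0 rose, with a median of -0.47. Of all genes 8.18% were lower and 8.13% higher in this comparison. Among them were Mpc2, a subunit of the mitochondrial pyruvate carrier (-0.91 ± 0.13, limma adjusted p = 0.000206), the succinate dehydrogenase subunits Sdhc (-0.68 ± 0.14) and Sdhb (-0.77 ± 0.16), and Pdk2, a kinase that inhibits pyruvate dehydrogenase (-0.79 ± 0.17). Of 22 further branched-chain genes 9 fell and 1 rose, with a median of -0.43 and 6 above 0. The 1 that rose was no more than the share of all genes. Acaa2, a thiolase shared with fatty acid oxidation, fell by 1.57, Hsd17b10 of isoleucine breakdown by 0.91 and Acsf3 by 0.80. Slc7a5, a plasma membrane carrier of large neutral amino acids, rose from 73.8 ± 17.1 to 194.1 ± 27.6 normalised counts (1.40 ± 0.20, limma adjusted p = 0.000183). It was lower again in KO+AAV at 84.8 ± 23.4 (-1.21 ± 0.21, limma adjusted p = 0.00265), where 5.69% of all genes were lower than in KO. Among further ketone genes the monocarboxylate carrier Slc16a7 fell (-0.89 ± 0.27, limma adjusted p = 0.0323).

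Among 17 regulators of mitochondrial and branched-chain genes 4 fell in KO at 6 months, where 8.18% of all genes did. The count was 2 without WT 1, without KO 1 or without KO 5, 1 without both KO 1 and KO 5, and 0 at equal cardiomyocyte marker mean. Ppargc1a, a coactivator of mitochondrial genes, stood at 2363 ± 908 in WT and 1079 ± 129 in KO (-1.05 ± 0.24, limma adjusted p = 0.00728). Klf15, a transcription factor of amino acid metabolism, changed by -0.53 ± 0.13, the receptor Ppara by -0.70 ± 0.20 and Esrra by -0.39 ± 0.11. In KO+AAV against KO, Esrra was the 1 of 17 that rose (0.52 ± 0.12, limma adjusted p = 0.0131). This count was near the share of all genes, of which 5.55% were higher. For comparison, 26 of 29 oxidative phosphorylation genes fell in KO at 6 months, with a median of -0.74, and 21 rose in KO+AAV against KO, with a median of 0.72. Of 26 fatty acid oxidation genes 18 fell, with a median of -0.81, and 7 rose, with a median of 0.42. Without KO+AAV 1 the counts that rose were 13 and 4. The shares for the 37 enzymes were 20 of 37 and 10 of 37, with medians of -0.68 and 0.26; the differences between these lists were not tested, and some genes stand in more than 1 list. At equal cardiomyocyte marker mean, 1 of the 29 and 4 of the 26 were lower in KO than in WT, beside the 4 of 37 given above.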

How the data were processed

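Poly(A) RNA of mouse hearts was sequenced in 20 stranded libraries as 150 bp read pairs, per the labels' protocols, and the build was mm10 per the submitters' processing notes; the aligner, the counter and its strand setting are not given in the labels. The authors deposited 1 table of normalised counts per age, a signal with fractional values on a scale of its own, so levels were not compared across the 2 tables. Only 66.0% to 92.0% of low values per library were whole multiples of a step (tolerance 0.1), so reads were not recovered, count tests were not run, and the depth behind a value is unknown. Libraries were grouped by label; at 6 weeks columns matched groups only. The labels do not say that replicates are separate animals, so p values measure the spread between these libraries.

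Values were fitted as log2(value + 1) with limma 3.58.1 in R 4.3.3 (trend, 3 groups of 6 months in 1 model), tested on simulated data. Of 13 like-numbered pairs at 6 months 7 correlated above 0.1, with a range from -0.391 to 0.253. In no pair was the second library the best match of the first within its group. The main fits therefore did not treat like numbers as pairs, though a pairing is not excluded. Alternatives covered pseudocount, filter, scaling, covariates and left-out libraries. Full values are given for up to 4 members of smallest p per role (22 members) and where ages or vector hearts differed. Members, lists and tests were chosen with earlier results of these data known. Tables were made in Python 3.11.15 with numpy 2.4.6 and pandas 2.3.3, figures with matplotlib 3.10.9. Coordinates are of GRCm38, the assembly of mm10, 1-based. The count for the list of further ketone genes is not reported here.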

Additional observations from a re-analysis of the deposited data

Results flagged for a closer look

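Of 111 groups of 4 or 5 libraries at 6 months, 4 held 1 library far from the others, and chance alone gives about 1 in 20 such groups. All 4 were KO+AAV 2, each time low: Idh3a at 3700 normalised counts, Mdh1 at 16375, Bckdhb at 495.4 and Mccc1 at 902.1. That library also had the lowest enzyme median of its group, -0.85 against the WT mean on the log2 scale, and belongs to the lower set.

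The knockout effect differed between 6 months and 6 weeks for Bcat2 (-1.293 on the log2 scale), Auh (-1.055) and Fh1 (-0.887), by a test of the difference itself.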

How the results depend on the processing

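At 6 weeks 0 enzymes were called under 15 of 15 alternatives. For KO against WT at 6 months, 20 lower enzymes became 4 lower and 2 higher at equal cardiomyocyte marker mean, 12 without KO 1 and KO 5, 34 with the set of libraries as a covariate, and 31 lower and 1 higher in the set of 8 alone; leaving out 1 library gave 15 to 23. Cs and Idh3a, like Got1, lost their calls without WT 1, WT 2, WT 3, WT 4, KO 1 or KO 5, Dbt without WT 1, WT 2, WT 3, KO 1 or KO 5. Bcat2, Bckdha, Bckdhb and Gpt kept direction and call in 26 of 26. At equal cardiomyocyte marker mean 27 of 37 members were below 0, in place of 35. Among the 22 members with full values, reversed signs were Got2 0.041, Mcee 0.087 and Oxct1 0.005 there, and Bdh1 -0.091 in Y-linked libraries alone. For KO+AAV against KO, 10 became 2 at equal cardiomyocyte marker mean (Pccb -0.036), 4 with the Xist class as a covariate, 6 without KO 1 and KO 5, 2 in Y-linked libraries alone and 16 with the set; leaving out 1 library gave 5 to 13. For KO+AAV against WT, 0 became 1 in Y-linked libraries alone, 10 with the set, and 8 lower and 1 higher in the set of 8; leaving out 1 library gave 0 to 1. For the difference between ages, 3 became 1 at equal cardiomyocyte marker mean, 1 without KO 1 and KO 5 and 5 with the set; leaving out 1 library gave 1 to 4. With the replicate number as a block, which is not shown to pair these libraries, the counts were 20, 8, 0 and 2. The set terms were chosen after seeing the data, and the causes of these shifts were not tested. Alternatives that need counts were not run. With depth unknown, a member that missed the threshold is not shown to be unchanged.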

Other observations

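Pccb at 6 weeks held a library in each group apart from the rest: 3920 normalised counts in WT6 and 7024 in KO2, where the other 4 libraries held 1945 to 2426.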
